A study of Mus musculus with 28 samples.

Results

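Glycolysis splits glucose into pyruvate, and several of its steps are carried out in the male germ line by enzymes encoded by genes that body cells hardly use. The 10 genes described here form 5 pairs of isozymes, each a widely expressed somatic form with its germ cell counterpart: *Gapdh* with *Gapdhs* (glyceraldehyde-3-phosphate dehydrogenase), *Pgk1* with *Pgk2* (phosphoglycerate kinase), *Pgam1* with *Pgam2* (phosphoglycerate mutase), *Eno1* with *Eno4* (enolase) and *Ldha* with *Ldhc* (lactate dehydrogenase, which interconverts pyruvate and lactate). They were chosen by name out of 27964 genes, and all 10 were present in the data with a value in every library. The X chromosome is silenced in spermatocytes during meiosis, and *Pgk2*, an intronless retrocopy of the X-linked *Pgk1*, is the textbook case of an autosomal gene that takes over. The sperm flagellum depends on glycolysis for motility, GAPDHS is anchored in its fibrous sheath, and LDHC is the main lactate dehydrogenase of mouse sperm. *Pgam2* is also the phosphoglycerate mutase of skeletal muscle, so it is not restricted to germ cells.

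RNA was measured by poly(A) RNA-seq in 28 libraries from 13 mice, each labelled C57BL/6 and either wildtype (WT) or constitutively deleted for exon 1 and part of intron 1 of *Csmd1*, with a lacZ/neomycin cassette in its place (KO); the study's methods describe a mixed 129SvEvBrd:C57BL/6 colony and sibling WT and null animals. Germ cells of 3 WT and 5 KO males were separated by Hoechst fluorescence into the gates R5 (spermatogonia, 2 WT and 2 KO libraries), R7 (primary spermatocytes, 2 WT and 4 KO), R6 (secondary spermatocytes, 2 WT and 3 KO) and R4 (spermatids, 3 WT and 2 KO). The stated sorting age was 40 ± 1 days, with no label for single mice. Whole testis came from 2 WT and 5 KO males, described as immature (20 days) or mature (40 days) without a label that gives the age of each library, and whole ovary from 1 WT female. Levels are RPKM, read numbers scaled by transcript length and by the mapped reads of the library, summed over the transcripts of a gene, and the estimated depth of 27 libraries was 23799158 to 61648580 mapped reads (median 45288367). The main limma fits took each library as a replicate, with mouse as a block only in alternatives. The permutations of pair ratios were made within mice.

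Several libraries went against their labels or stood apart from their group. The R5 library of KO mouse 544 held 12400 summed RPKM of 6 late spermatid genes (*Prm1*, *Prm2*, *Tnp1*, *Tnp2*, *Odf1*, *Smcp*), where the other 3 R5 libraries held 9.01 to 578, and its *Dmrt1*, a spermatogonial gene, was 24.5 RPKM against 66.0 to 120 in the others. The R4 libraries of WT mouse 648 and KO mouse 286 held 608 and 524 summed RPKM of the late spermatid genes against 8051 to 8671 in the other 3. Whole testes of mice 178, 214 and 273 held 6082 to 12120 and those of mice 648, 269, 286 and 308 held 8.91 to 155. Mice 178, 286 and 648 gave both sorted cells and a whole testis, and the libraries of 286 and 648 were poor in late spermatid genes in R4 and in whole testis, which the stated sorting age does not separate from those of 178. Whether these mice differed in age was not tested. The R7 library of KO mouse 613 lacked the whole-read steps of the other libraries, so its depth is unknown, and its sums over transcripts stood differently to their highest transcript: its *Ldhc* sum of 535 RPKM was close to its highest transcript at 526, against 3849 and 1725 in R7 of WT mouse 178. Its summed levels may therefore not be on the same footing as those of the other libraries. Lists of 6 marker genes otherwise followed the gates: spermatogonial genes summed to 303 to 916 RPKM in R5 and 10.9 to 285 later, and round spermatid genes to 14.3 to 53.7 in R5 without mouse 544, 101.3 to 200.5 in R7, 210 to 560 in R6 and 523 to 1020 in R4. Primary spermatocyte genes did not set R7 (442 to 2264) apart from R5 (348 to 2025) or from R6 (165 to 1282). In R4 they summed to 606.5 and 964 in mice 286 and 648, inside the R7 range, and to 59.8 to 166 in the other 3. Somatic testis cells were represented as well, with peritubular and stromal genes at 30.7 to 819 RPKM in R5 and 2.34 to 129 later, macrophage genes at 9.57 to 74.6 and 1.74 to 16.7, Leydig cell genes at 10.7 to 322 and 2.13 to 82.4, and Sertoli cell genes (of which *Rhox5* was listed at 0 in every library) at 368 to 658 and 28.4 to 736. Genes of red blood cells summed to 1.66 to 10.6 RPKM in R5 and 0.20 to 9.31 later, and ovarian marker genes to 1580 in the ovary and at most 76.8 elsewhere. Fewer cells of a type and less RNA per cell cannot be told apart in such samples.

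The 5 germ cell forms differ in genomic setting, and the sequence around their start sites is shown because their transcripts were higher after the spermatogonial gate in mice 178, 286 and 648 and lower in mouse 544. Each run holds 250 bases before and 50 bases after a RefSeq start site (GRCm38.p6), 5′ to 3′ on the strand of the gene. Capitals mark matches on either strand to TGACGT (the core of a cAMP response element), AACNGTT (a MYB-type site) and GTTGCC (part of the X-box bound by RFX factors), which were found in 7.51%, 4.45% and 12.5% of 32851 promoters of the same length. *Ldhc* lies on chromosome 7 (plus strand, chr7:46861013-46861312), immediately downstream of *Ldha*. *Pgk2* lies on chromosome 17 (minus strand, chr17:40208560-40208859) and has 1 exon, where the *Pgk1* transcript on the X chromosome has 11. *Gapdhs* lies on chromosome 7 (minus strand, chr7:30743632-30743931), *Pgam2* on chromosome 11 (minus strand, chr11:5803747-5804046) and *Eno4* on chromosome 19 (plus strand, chr19:58943175-58943474).
Ldhc: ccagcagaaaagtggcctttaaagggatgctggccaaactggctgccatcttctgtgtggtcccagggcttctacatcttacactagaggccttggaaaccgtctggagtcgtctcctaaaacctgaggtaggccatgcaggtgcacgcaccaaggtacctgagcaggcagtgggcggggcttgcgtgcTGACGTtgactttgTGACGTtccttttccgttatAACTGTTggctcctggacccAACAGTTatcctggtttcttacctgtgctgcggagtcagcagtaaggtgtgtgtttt
Pgk2: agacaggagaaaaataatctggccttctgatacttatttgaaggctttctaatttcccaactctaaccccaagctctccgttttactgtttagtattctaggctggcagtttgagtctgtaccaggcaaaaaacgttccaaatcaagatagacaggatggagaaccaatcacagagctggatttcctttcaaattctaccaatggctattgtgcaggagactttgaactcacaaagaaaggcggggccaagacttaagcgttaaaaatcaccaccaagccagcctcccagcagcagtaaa
Gapdhs: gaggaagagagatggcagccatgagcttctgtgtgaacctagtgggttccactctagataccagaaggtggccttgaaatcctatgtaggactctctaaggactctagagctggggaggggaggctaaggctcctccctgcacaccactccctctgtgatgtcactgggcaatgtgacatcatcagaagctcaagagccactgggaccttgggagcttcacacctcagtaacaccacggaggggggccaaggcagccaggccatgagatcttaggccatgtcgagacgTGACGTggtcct
Pgam2: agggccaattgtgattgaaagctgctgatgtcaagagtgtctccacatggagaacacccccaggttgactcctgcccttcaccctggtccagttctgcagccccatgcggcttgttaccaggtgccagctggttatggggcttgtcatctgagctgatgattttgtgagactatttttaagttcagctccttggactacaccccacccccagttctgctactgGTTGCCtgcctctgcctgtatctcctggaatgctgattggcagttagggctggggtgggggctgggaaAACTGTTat
Eno4: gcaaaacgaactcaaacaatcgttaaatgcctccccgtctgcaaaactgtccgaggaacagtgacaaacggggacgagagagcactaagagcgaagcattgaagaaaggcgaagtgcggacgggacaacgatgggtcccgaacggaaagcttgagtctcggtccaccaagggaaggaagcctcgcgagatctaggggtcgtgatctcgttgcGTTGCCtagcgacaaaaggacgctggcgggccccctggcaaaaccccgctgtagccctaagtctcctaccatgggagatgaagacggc

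The *Ldhc* window held 4 matches, TGACGT at -61 and -47 and AACNGTT at -27 and -7 from the start site. *Gapdhs* held TGACGT at position 39, *Pgam2* held GTTGCC at -27 and AACNGTT at position 42, *Eno4* held GTTGCC at -38, and *Pgk2* held no match to these letters. Among the somatic forms only *Ldha* had a match, an overlapping pair of TGACGT matches at -12 and -10 that form a palindrome. The somatic windows were richer in CpG than 4 of the germ cell windows: observed over expected CpG was 0.50 (*Gapdh*) to 0.95 (*Pgam1*) in the somatic forms and 0.05 (*Pgam2*), 0.17 (*Gapdhs*), 0.29 (*Pgk2*) and 0.42 (*Ldhc*) in the germ cell forms, with a median of 0.38 over all promoters. *Eno4* was the exception among germ cell forms, at the percentile 94.8 of all promoters. These matches describe the sequence and do not show that a factor bound there.

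Which isozymes rose or fell after the spermatogonial gate was asked by comparing the mean of R7, R6 and R4 with R5 over the 20 sorted libraries. *Ldha*, *Ldhc*, *Pgk2*, *Pgam2* and *Eno4* rose, *Gapdh*, *Pgk1* and *Pgam1* fell, and *Gapdhs* and *Eno1* did not pass the test (limma on log2(RPKM + 0.1), adjusted p under 0.05). In this comparison 13.2% of the 19013 genes tested were called higher and 27.1% lower, and the members' 5 of 10 and 3 of 10 are to be read against those shares. The median difference on the log2 scale was 2.05 over the members and -0.21 over all genes tested. When mouse 648 was left out, 3 members passed (*Gapdh* lower, *Pgam2* and *Eno4* higher), and without mouse 286 there were 4 (*Gapdh* and *Pgam1* lower, *Pgam2* and *Eno4* higher). Without the R5 library of mouse 544 the same 8 passed and *Gapdhs* with them, at 2.92 for *Ldha*, 3.33 for *Ldhc*, 3.58 for *Pgk2*, 3.45 for *Pgam2*, 2.56 for *Eno4*, -3.51 for *Gapdh*, -2.26 for *Pgk1* and -2.24 for *Pgam1* (adjusted p = 2.69e-05 to 0.0157, limma), and without mouse 613 the same 8 passed. The somatic cell markers that were higher in R5 moved with *Gapdh*, *Pgk1* and *Pgam1*, and their part in these differences was not tested. After quantile normalization, 50.5% of the called genes were higher in place of 32.9%, and 5 members were higher and 2 lower.

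**Figure D1:**
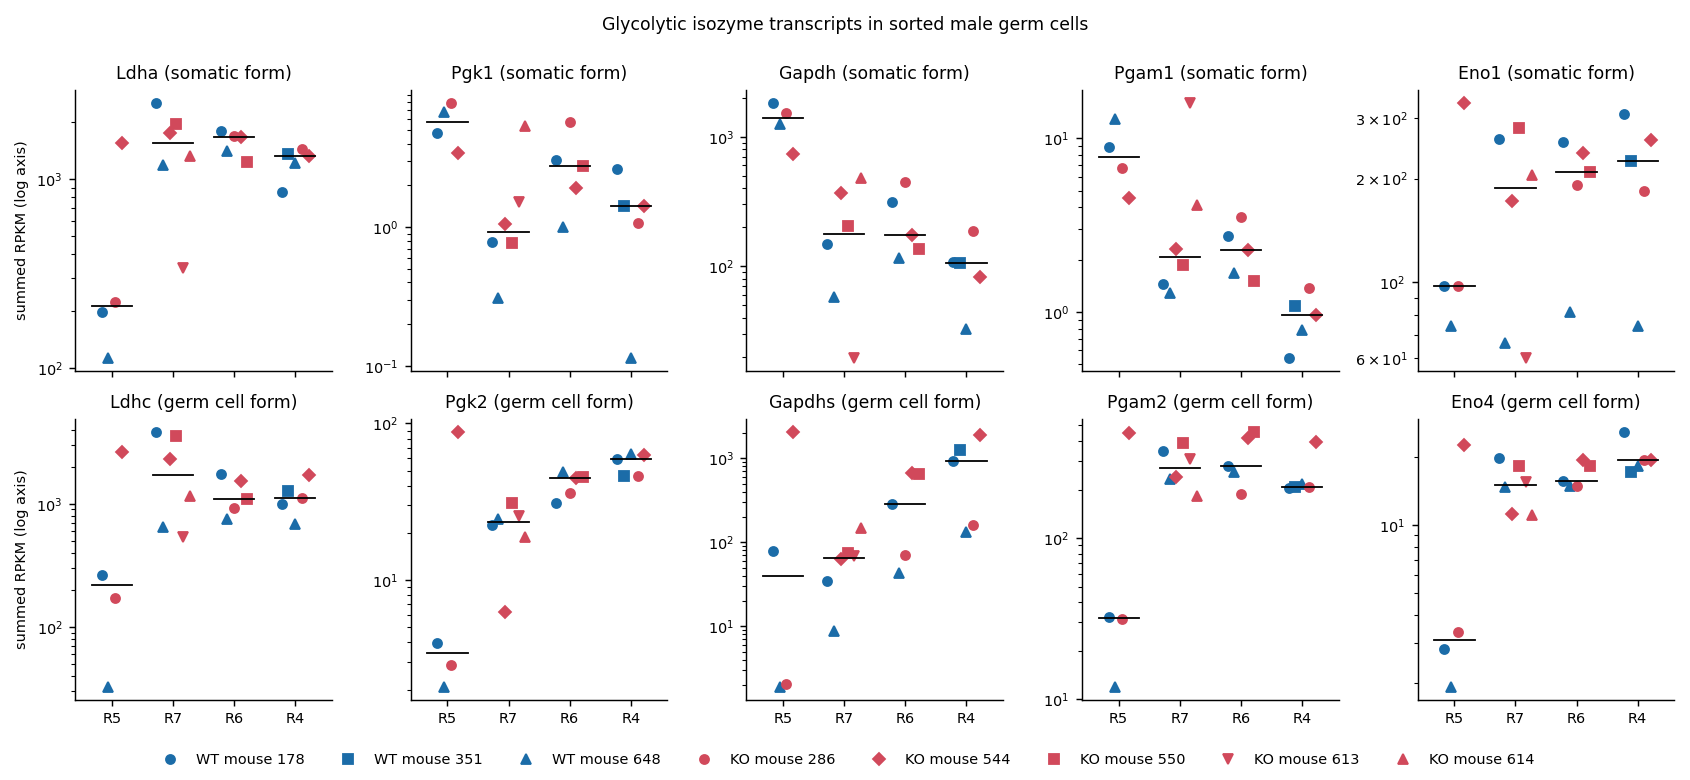
Summed RPKM (log axis) of the 5 somatic forms (top row) and 5 germ cell forms (bottom row) in the gates R5, R7, R6 and R4, with 1 point per library, WT in blue and KO in red, a symbol per mouse and a bar at the median. *Gapdh* has its highest median in R5 (736 to 1825) and *Gapdhs* in R4 (132 to 1878), and the R5 library of KO mouse 544 (diamond) lies far above the other R5 libraries for every germ cell form.

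Glyceraldehyde-3-phosphate dehydrogenase had the largest fall among the 5 somatic forms. *Gapdh* was at 1825 and 1246 RPKM in the WT and 1538 and 736 in the KO R5 libraries, and at 19.5 to 484 (median 142) in the 16 later libraries (lowest in R7 of mouse 613, the next at 32.8), so that every R5 library lay above every later one. It fell by 3.25 on the log2 scale (SE 0.66, adjusted p = 0.00118, limma) and fell within all 4 mice with an R5 library, by 2.09 to 4.37. *Gapdh* has many near-identical processed copies in the mouse genome, so its reads may be hard to place, which was not measured.

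*Gapdhs*, which encodes the sperm form, ran the other way through the gates. In R5 it was at 1.89 (WT mouse 648), 2.03 (KO mouse 286), 78.3 (WT mouse 178) and 2068 RPKM (KO mouse 544). In R7 it was at 8.69 to 147 (median 65.4), in R6 at 43.5, 71.1, 287, 645 and 676, and in R4 at 132, 163, 929, 1258 and 1878. With the R5 library of mouse 544 excepted, the medians were in the order R5, R7, R6 and R4, and neighbouring gates overlapped. The difference of the later gates from R5 was 2.45 (SE 1.30, adjusted p = 0.142) with all libraries and 4.93 (adjusted p = 0.00152) without that R5 library, but 0.44 (adjusted p = 0.809) without mouse 286 and 1.69 (adjusted p = 0.476) without mouse 648. R4 over R7 gave 3.83 (SE 1.45, adjusted p = 0.0566, limma), and 4.25 with mouse as a random replicate block (adjusted p = 0.00442).

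*Gapdhs* was high where the late spermatid genes were high, in R4 and in whole testis. The 3 R4 libraries rich in those genes held 929 to 1878 RPKM of *Gapdhs* and the 2 poor in them 132 and 163. In whole testis the libraries of mice 178, 214 and 273 held 1063, 1423 and 2174 RPKM and those of mice 308, 269, 286 and 648 held 3.91, 13.1, 24.2 and 31.7. *Pgk2* overlapped between these R4 libraries, at 46.2 and 63.45 RPKM in the 2 poor R4 libraries and 46.3 to 63.2 in the other 3. In whole testis *Pgk2* was at 25.1, 93.9 and 76.1 RPKM in the libraries of mice 178, 214 and 273 and at 11.1 to 28.3 in the other 4, so that 2 of the 3 lay above all 4. The part of cell composition in these levels was not tested.

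**Figure D2:**
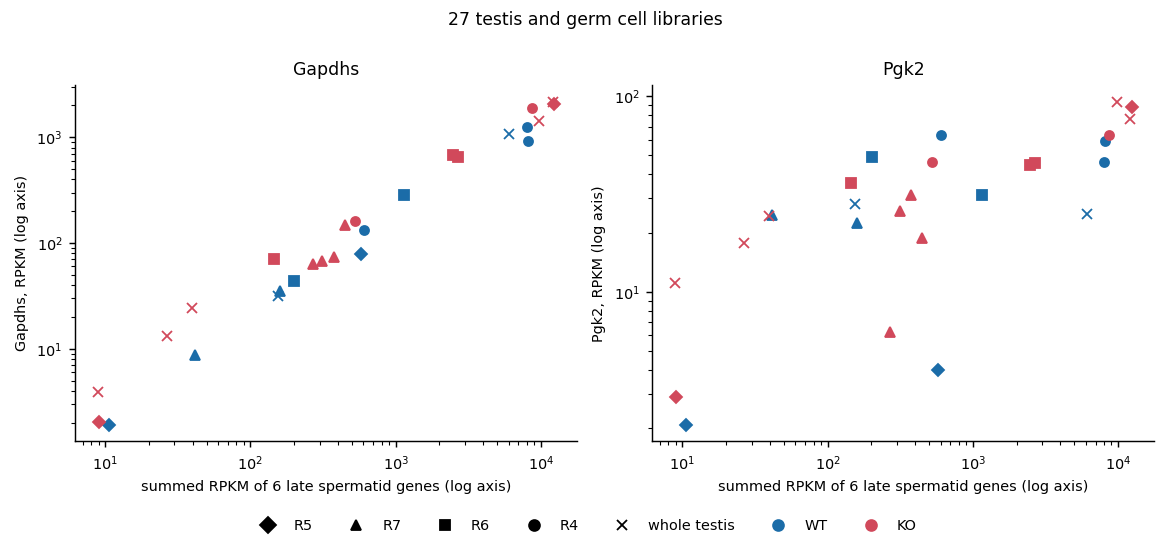
*Gapdhs* (left) and *Pgk2* (right) in RPKM against the summed RPKM of 6 late spermatid genes, both on log axes, in 27 testis and germ cell libraries, with symbols by gate and colours by genotype. *Gapdhs* runs from 1.89 to 2174 RPKM along with the late spermatid genes, and *Pgk2* spans 46.2 to 63.45 RPKM in the R4 libraries on both sides of the gap in those genes.

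Phosphoglycerate kinase, the step that yields ATP after GAPDH, had its largest differences between R5 and the later gates. *Pgk1* was at 4.77 and 6.78 RPKM in the WT and 7.87 and 3.41 in the KO R5 libraries. In the later gates it was at 0.11 to 5.69 (median 1.42), and R6 of KO mouse 286 (5.69) and R7 of KO mouse 614 (5.36) reached into the R5 range. It fell by 1.97 on the log2 scale (SE 0.60, adjusted p = 0.0155, limma), and fell within all 4 mice, by 1.20 to 3.90. Few reads stand behind the low values: the most abundant *Pgk1* transcript had an estimated 4 reads in R4 and 9 reads in R7 of WT mouse 648. The call was lost after quantile normalization (adjusted p = 0.0846, limma) and without mouse 286 (0.120) or 648 (0.115). With 1 mouse left out the difference ran from -2.44 to -1.44.

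*Pgk2* was at 2.08 and 3.99 RPKM in the WT R5 libraries and at 2.89 in that of KO mouse 286, against 88.4 in that of KO mouse 544. It was at 6.24 to 31.1 in R7 (median 23.5), at 31.2 to 49.1 in R6 (median 44.7) and at 46.2 to 63.45 in R4 (median 59.1). Apart from mouse 544, the R5 libraries lay below all later ones, and R7 lay below R6 by a narrow gap (31.1 against 31.2). *Pgk2* rose by 2.36 over R5 (SE 0.59, adjusted p = 0.00483, limma), but within mouse 544 it fell by 1.76. The call was lost without mouse 286 (1.19, adjusted p = 0.0775) or 648 (2.05, adjusted p = 0.0979). R4 over R7 gave 1.43 (SE 0.66, adjusted p = 0.115), and 1.74 with mouse as a random replicate block (adjusted p = 0.0319).

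Phosphoglycerate mutase changed in the same sense. *Pgam1* was at 8.92 and 13.01 RPKM in the WT and 6.73 and 4.54 in the KO R5 libraries, at 0.54 to 1.38 in R4 (median 0.96) and at 1.51 to 3.52 in R6 (median 2.26). Its R7 level was 1.28 to 16.0, with the top value in the library of KO mouse 613, and the R5 and R4 ranges did not overlap. *Pgam1* fell by 2.11 over the later gates (SE 0.46, adjusted p = 0.00187, limma), a call that was lost without mouse 648 (-1.90, adjusted p = 0.0532). R4 against R7 gave -1.25 (SE 0.51, adjusted p = 0.0751), and -1.27 with mouse as a random replicate block (adjusted p = 0.0225).

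*Pgam2* was at 32.3 and 11.9 RPKM in the WT R5 libraries, 31.3 in that of KO mouse 286 and 449 in that of KO mouse 544. It was at 183 to 390 in R7 (median 274), 186 to 456 in R6 (median 278) and 206 to 393 in R4 (median 207), so that the 16 later libraries stood above 3 of the 4 R5 libraries. *Pgam2* rose by 2.49 (SE 0.50, adjusted p = 0.00119, limma) and had reached its range by R7. Of 6 skeletal muscle genes, *Ckm* was at 0 to 0.21 RPKM and *Acta1* at 0 to 0.17 in the sorted libraries, *Mylpf* was at 1.66 to 5.31 and *Tnni2* at 0.72 to 1.55 in the 3 R5 libraries with low *Pgam2* and at most 2.12 and 0.55 in the later gates, and the 6 summed to 6.29 to 7.73 in those R5 libraries and to 0.068 to 7.12 in the later gates. The 7.12 was in R4 of WT mouse 178, with *Mylpf* at 0.11, *Ckm* at 0.016 and *Acta1* and *Tnni2* at 0. Genes of the list not named here made up most of that sum.

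Enolase differed from the 3 pairs above in its somatic form, which did not pass the test. *Eno1* was at 97.4 and 74.2 RPKM in the WT and 97.2 and 333 in the KO R5 libraries, and at 60.0 to 308 (median 207) in the later ones, with a difference of 0.46 (SE 0.49, adjusted p = 0.488, limma). The WT mouse 648 held 66.3 to 81.7 in each of its 4 gates, below every sorted library of the other mice except R7 of mouse 613 at 60.0. *Eno4*, the form of the sperm flagellum, was at 2.83 and 1.91 RPKM in the WT R5 libraries, 3.36 in that of KO mouse 286 and 22.5 in that of KO mouse 544. In the later gates it was at 11.1 to 25.8 (median 17.6). It rose by 1.88 (SE 0.37, adjusted p = 0.00101, limma), and its R7, R6 and R4 ranges overlapped.

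Lactate dehydrogenase was the pair in which both forms rose. *Ldha* was at 199 and 113 RPKM in the WT R5 libraries, 225 in that of KO mouse 286 and 1557 in that of KO mouse 544, and at 339 to 2527 (median 1381) in the later gates, where the lowest value was R7 of mouse 613 and the next 851. It rose by 2.22 (SE 0.50, adjusted p = 0.00242, limma), within 3 mice by 2.79 to 3.49 and within mouse 544 by 0.01. *Ldhc* was at 265 and 32.5 RPKM in the WT R5 libraries, 171 in that of KO mouse 286 and 2657 in that of KO mouse 544, and at 535 to 3849 (median 1131) later, again with R7 of mouse 613 lowest and the next at 652. Its highest values were in R7 of WT mouse 178 (3849) and of KO mouse 550 (3578). *Ldhc* rose by 2.34 (SE 0.69, adjusted p = 0.0127, limma). The calls of *Ldha* and *Ldhc* were lost without mouse 286 (1.501 and 1.435, adjusted p = 0.0707 and 0.200) and without mouse 648 (2.13 and 1.94, adjusted p = 0.0525 and 0.109), and without mouse 544 the values were 2.88 and 3.21.

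**Figure D3:**
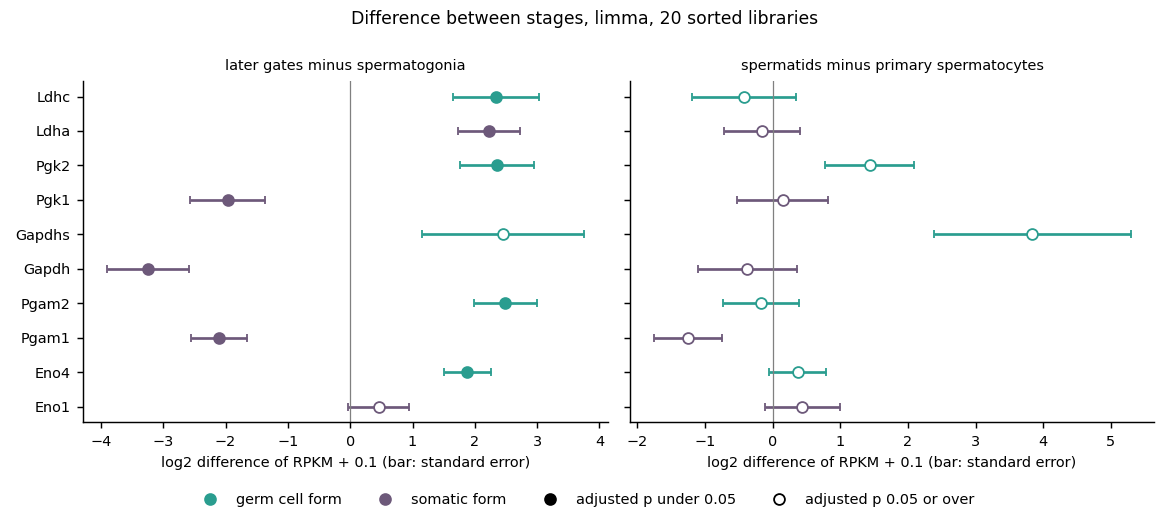
Difference on the log2 scale of RPKM + 0.1, with its standard error, of the later gates over R5 (left) and of R4 over R7 (right) for the 10 members, from limma over 20 sorted libraries. Filled points passed an adjusted p of 0.05: 5 higher and 3 lower on the left, and none on the right, where *Gapdhs* is farthest from 0 at 3.83.

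Between primary spermatocytes and spermatids none of the 10 members passed the test in either direction, where 13.6% of all genes tested were called higher and 15.7% lower. At an unadjusted p of 0.05 there were 3 members (*Gapdhs*, *Pgk2* and *Pgam1*) beside 7524 of all 19013 genes, a larger share than that of the members. The same 3 passed after adjustment with mouse as a random replicate block (limma), where 3548 genes were called higher and 4333 lower. With mouse as a fixed term only *Gapdhs* did, at 4.72 (adjusted p = 0.00301). *Gapdhs* stayed at 3.83 and *Pgk2* at 1.43 when the R5 library of mouse 544 was left out of the fit. That library is in neither R7 nor R4, so only the spread shared by all groups changed. Without the R4 libraries of mice 286 and 648, which left mouse 544 as the only KO mouse in R4, *Gapdhs* was at 5.22. The other 7 members ranged from -0.42 (*Ldhc*) to 0.44 (*Eno1*).

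The exchange within each pair was measured as the log2 ratio of germ cell to somatic form in the same library, and tested by exact permutation of the gates within mice (two-sided, 1 test per pair and comparison, 10 in all, p not adjusted). For the later gates over R5, 4 mice allowed 192 arrangements and a smallest p of 0.00521. *Pgam2*/*Pgam1* rose by 4.63 ± 2.83 (SD, n = 4, exact p = 0.00521), higher in 4 of 4 mice. *Eno4*/*Eno1* rose by 1.44 ± 1.18 (SD, n = 4, exact p = 0.0104), higher in 4 of 4 mice. *Gapdhs*/*Gapdh* rose by 5.33 ± 4.02 (SD, n = 4, exact p = 0.0208) and *Pgk2*/*Pgk1* by 4.35 ± 3.65 (SD, n = 4, exact p = 0.0156), each higher in 3 of 4 mice with mouse 544 the exception at -0.18 and -0.55. On the highest single transcript *Gapdhs*/*Gapdh* rose by 5.49 and was higher in 4 of 4 mice (exact permutation p = 0.0156), so that the sign in mouse 544 depends on how transcripts were combined. *Ldhc*/*Ldha* differed by 0.00 ± 0.65 (SD, n = 4, exact p = 1), with 0.93 in mouse 648 and -0.15 to -0.55 in the other 3. The *Gapdhs*/*Gapdh* value no longer passed without mouse 178, 286 or 648 (5.49, 4.42 and 4.24, exact permutation p = 0.0625 to 0.0833), nor *Pgk2*/*Pgk1* without mouse 178 or 648 (4.34 and 3.07, each p = 0.0625). *Gapdhs*/*Gapdh* was also lost without the R4 libraries of mice 286 and 648 (4.68, exact permutation p = 0.0521). Without the R5 library of mouse 544, 3 mice gave 5.99 for *Pgk2*/*Pgk1*, 7.16 for *Gapdhs*/*Gapdh*, 5.86 for *Pgam2*/*Pgam1* and 1.87 for *Eno4*/*Eno1* (exact permutation p = 0.0208 each, the smallest possible), and 0.18 for *Ldhc*/*Ldha* (p = 0.50).

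**Figure D4:**
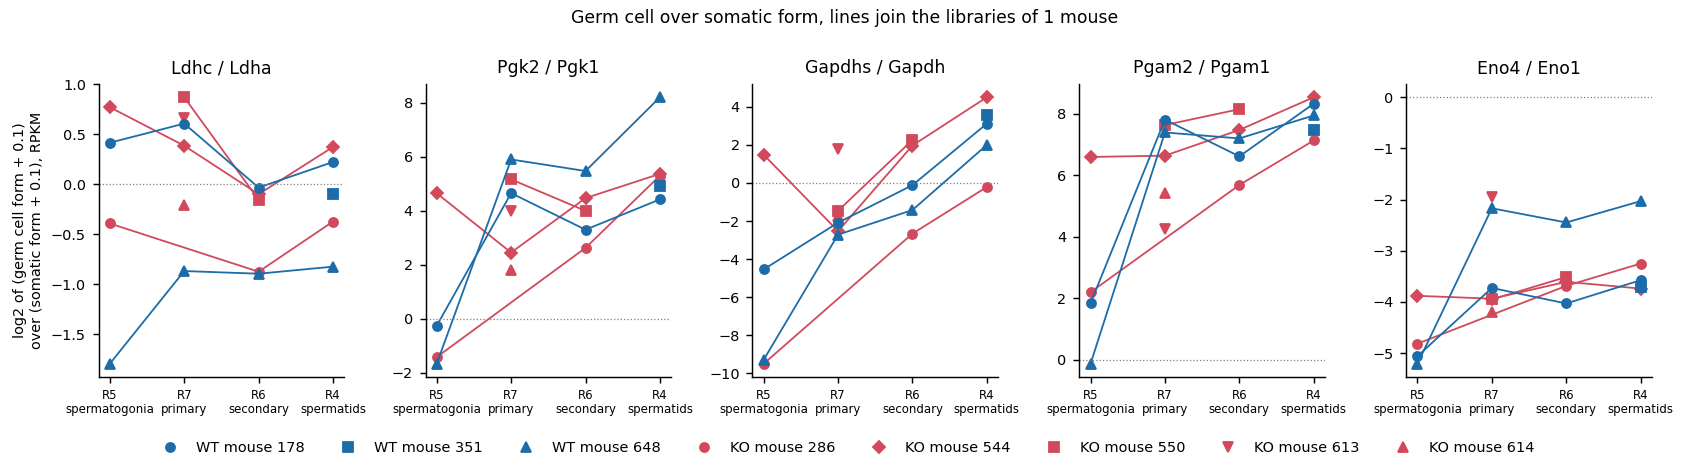
Log2 ratio of germ cell to somatic form (summed RPKM + 0.1) for the 5 pairs by gate, with lines joining the libraries of 1 mouse, WT in blue and KO in red. The *Gapdhs*/*Gapdh* ratio runs from -9.50 in R5 to 4.51 in R4, the *Pgk2*/*Pgk1* and *Pgam2*/*Pgam1* ratios step up between R5 and the next gate in all mice but 544, and *Ldhc*/*Ldha* stays between -1.79 and 0.87.

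The same ratios were compared between the later pair of gates (R6 and R4) and the earlier pair (R5 and R7) in 5 mice, which allowed 1296 arrangements and a smallest p of 0.000772. Only mice 178, 544 and 648 had all 4 gates. Mouse 286 had no R7 library, so its values are the same as for the later gates over R5. Mouse 550 had R7 and R6 only. *Gapdhs*/*Gapdh* rose by 5.33 ± 1.85 (SD, n = 5, exact p = 0.000772), the smallest that the permutations can give, and was higher in 5 of 5 mice by 3.72 (mouse 550) to 8.06 (mouse 286). *Pgam2*/*Pgam1* rose by 2.54 ± 1.59 (SD, n = 5, exact p = 0.010) and *Eno4*/*Eno1* by 0.81 ± 0.55 (SD, n = 5, exact p = 0.0162), both higher in 5 of 5 mice. *Pgk2*/*Pgk1* gave 2.40 ± 2.68 (SD, n = 5, exact p = 0.0664), higher in 4 of 5 mice with mouse 550 at -1.17. *Ldhc*/*Ldha* gave -0.33 ± 0.54 (SD, n = 5, exact p = 0.223), lower in 4 of 5 mice. Without the R4 libraries of mice 286 and 648 the *Gapdhs*/*Gapdh* value was 4.74 (exact permutation p = 0.0116), and those of *Pgam2*/*Pgam1* (2.32, p = 0.104) and *Eno4*/*Eno1* (0.73, p = 0.160) no longer passed. The last 2 were also lost without mouse 286 (2.12 and 0.68, exact permutation p = 0.0509 and 0.0833), whereas *Pgk2*/*Pgk1* passed without mouse 550 (3.28, p = 0.0309), with a pseudocount of 1 (2.19, p = 0.0309), without the R5 library of mouse 544 (2.62, p = 0.0463) and with no replicate block (2.28, p = 0.0368), *Eno4*/*Eno1* was lost with no replicate block (0.53, p = 0.195), and *Ldhc*/*Ldha* passed, lower, without mouse 648 (-0.53, p = 0.0324).

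Levels of different genes were set side by side only per transcript, since in the libraries other than R7 of mouse 613 reads shared by transcripts may have been counted for each of them. How such reads were assigned was not tested. *Gapdh* has 12 listed transcripts, *Eno1* 11 and *Ldha* 8, against 3 for *Ldhc*, *Gapdhs* and *Pgk1* and 1 for each other member. The transcript with the highest mean was a short one for *Gapdh* (565 nt, retained intron), *Eno1* (578 nt, retained intron) and *Ldha* (645 nt), and that of *Pgk1* is annotated as a target of nonsense-mediated decay, which limits these shares. On the transcript of each gene with the highest mean RPKM, the germ cell form made up 98.6 to 99.9% of the *Pgk* pair and 99.3 to 99.8% of the *Pgam* pair in R4, and 68.9 to 98.5% of the *Gapdh* pair. In R5 without mouse 544 the shares were 47.6 to 68.5% for *Pgk2*, 47.9 to 82.3% for *Pgam2* and 0.26 to 7.70% for *Gapdhs*. *Ldhc* held 45.6 to 83.6% of its pair over the 20 sorted libraries, with the top value in R7 of mouse 613 and the next at 80.7%. *Eno4* held 26.8 to 76.7% in R4 (median 31.0%), with the top value in mouse 648.

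Whole testis and whole ovary gave the background outside sorted cells, with 1 ovary and therefore no test. In the ovary *Pgk2* had 0 reads, where a floor of 3 reads corresponds to 0.035 RPKM. *Ldhc* was at 0.89 RPKM in the ovary and at 484 to 3554 (median 1581) in 7 testes, and *Pgam2* at 0.83 against 170 to 343 (median 220). *Gapdhs* (3.58) lay just below the lowest testis (3.91), and *Eno4* was at 5.55 against 9.01 to 26.6. The somatic forms stood the other way: *Pgk1* was at 295 RPKM in the ovary and 1.13 to 7.50 in testis, *Pgam1* at 54.1 and 1.86 to 11.0, *Gapdh* at 4577 and 203 to 2768, and *Eno1* at 1055 and 61.8 to 396. *Ldha* was at 1011 RPKM in the ovary, inside the testis range of 767 to 2131.

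**Figure D5:**
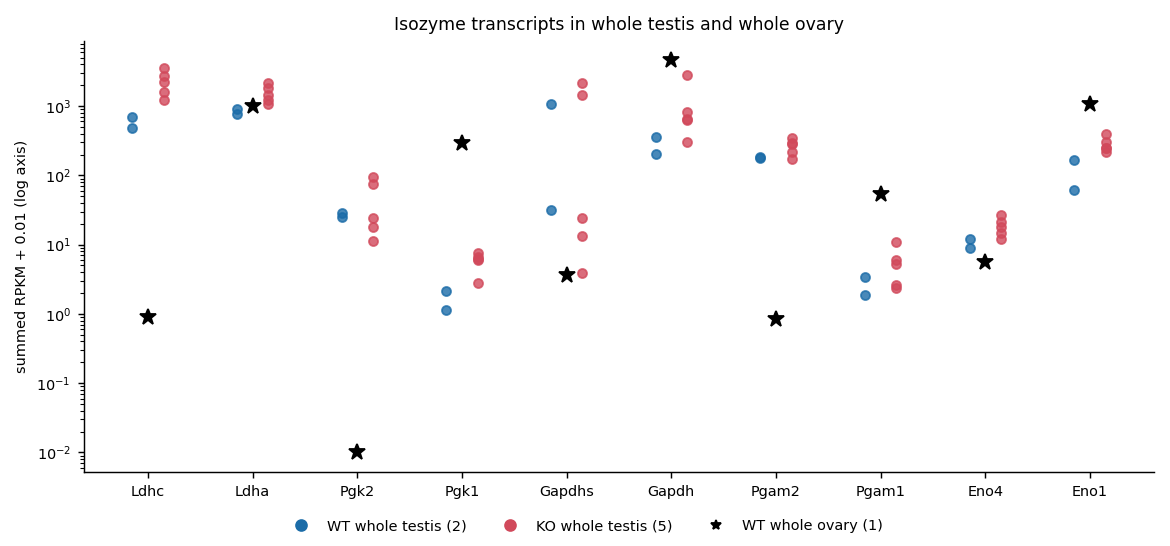
Summed RPKM + 0.01 (log axis) of the 10 members in WT whole testis (blue, 2 libraries), KO whole testis (red, 5 libraries) and WT whole ovary (star, 1 library). *Pgk1* is at 295 RPKM in ovary and at most 7.50 in testis, *Pgk2* has no read in ovary, and *Gapdhs* splits the testes into 3 at 1063 to 2174 and 4 at 3.91 to 31.7 RPKM.

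The *Csmd1* deletion was compared over the same genes. In sorted cells none of the 10 members passed between KO and WT (limma, adjusted p = 0.588 to 0.842), where 0% of all genes were called higher and 0.0105% lower. None of the members was under an unadjusted p of 0.05, beside 1623 of all 19013 genes. All 10 differences were above 0, from 0.30 (*Pgam1*) to 1.55 (*Gapdhs*, SE 1.07), beside a median of 0.24 over all genes, which was -0.01 after quantile normalization (*Gapdhs* 1.41, adjusted p = 0.740). Without KO mouse 286, *Gapdhs* (3.49, adjusted p = 0.0185) and *Pgam2* (1.51, adjusted p = 0.0138) passed (limma), and 1149 genes were called in place of 2. These fits took the libraries of a mouse as independent. With the replicate block and all mice kept, no gene was called. Without mouse 286 the only KO libraries of R5 and R4 were those of mouse 544, whose R5 library held late spermatid transcripts. The sets of libraries quantified together overlap in part with genotype, and with the set as a covariate *Gapdhs* gave -0.78 (adjusted p = 0.921) and *Pgam2* -0.16 (adjusted p = 0.963).

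In whole testis none of the 10 members passed either (limma, adjusted p = 0.271 to 0.933), 0% of all genes were called higher and 0% lower, and 3 members (*Ldhc*, *Pgk1* and *Eno1*) and 2323 of all genes were under an unadjusted p of 0.05. *Ldhc* was at 484 and 693 RPKM in WT and at 1226, 1581, 2209, 2730 and 3554 in KO testes, a difference of 1.86 (SE 0.47, adjusted p = 0.271, limma). *Pgk1* was at 1.13 and 2.13 in WT and 2.75 to 7.50 in KO testes (1.77, SE 0.55, adjusted p = 0.280), and *Eno1* at 61.8 and 167 in WT and 214 to 396 in KO (1.45, SE 0.46, adjusted p = 0.285). Among the testes rich in late spermatid genes *Ldhc* was at 693 RPKM in the WT and 2730 and 3554 in the KO libraries, and among those poor in them at 484 and at 1226 to 2209, and no test was run within either set. The median of all genes was 0.44, and only 2 WT testes were compared, 1 of which (mouse 648) was quantified in another set than the other 6.

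The rest of the pathway was read from a list of 36 genes, of which 35 were in the data and 34 were tested. In the later gates over R5, 11 of the 34 rose and 7 fell, beside 13.2% higher and 27.1% lower of all genes tested, with a median of 0.65 on the log2 scale against -0.21 over all genes tested. The somatic cell markers higher in R5 and the late spermatid transcripts in R5 of mouse 544 moved with this comparison, and their part in the pathway differences was not tested. Leaving out 1 mouse moved the calls over all genes between 3178 and 8781, and the pathway calls are given for the main fit only. Sugar transporters changed in both directions: *Slc2a1* (GLUT1) fell by 3.0 on the log2 scale (SE 0.65, adjusted p = 0.00184), with 11.8 to 39.4 RPKM in R5 and 0.13 to 2.17 in R4, and *Slc2a3* (GLUT3), which was at 43.9 to 349 RPKM in R5 and 392 to 2445 in R7, rose by 2.25 (SE 0.44, adjusted p = 0.000989, limma). *Slc2a5* (GLUT5, a fructose transporter) rose by 2.61 (SE 0.50, adjusted p = 0.00077). Among the hexokinases, which trap glucose in the cell, *Hk1* rose by 2.31 (SE 0.75, adjusted p = 0.0221) and *Hk2* fell by 2.52 (SE 0.57, adjusted p = 0.00262). *Pdha1*, the X-linked subunit of pyruvate dehydrogenase, fell by 3.16 (SE 0.57, adjusted p = 0.00054) and its autosomal retrocopy *Pdha2* rose by 1.70 (SE 0.54, adjusted p = 0.0196). Of the monocarboxylate transporters, *Slc16a1* fell by 2.58, and *Slc16a3* and *Slc16a7* rose by 1.22 and 2.18. The aldolase *Aldoc* fell by 3.28 and the phosphofructokinases *Pfkm* and *Pfkp* rose by 2.27 and 2.30.

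Between R7 and R4, 7 of the 34 rose and 3 fell, beside 13.6% higher and 15.7% lower of all genes tested. These pathway calls are given for the main fit only, and leaving out 1 mouse moved the calls over all genes between 1858 and 6423. The R4 libraries of mice 286 and 648 were poor in late spermatid genes and richer in primary spermatocyte genes than the other R4 libraries. Their part in these differences was not tested. *Aldoart1*, a germ cell aldolase, rose by 4.08 (SE 0.87, adjusted p = 0.00245), with 0.80 to 7.25 RPKM in R7 and 33.0 to 56.5 in R4, and *Aldoart2* rose by 3.77 (SE 1.18, adjusted p = 0.0231, limma). *Pfkfb3*, which makes the activator of phosphofructokinase, rose by 3.93 (SE 0.86, adjusted p = 0.00278). *Slc2a3* fell by 2.21 (SE 0.50, adjusted p = 0.0034, limma).

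The genes whose levels followed each member most closely over the 20 sorted libraries were found by Pearson's r of log2(RPKM + 0.1) among 13268 genes with a mean of at least 1 RPKM. These libraries share mice and gates, so r is a description. *Gapdhs* was closest to *Atp1a4* (r = 0.992), the sodium pump subunit of sperm, then to *Tmem82* and *Spert* (0.99 each). *Pgk2* was closest to *4930590J08Rik* (0.978), *Prss40* (0.975) and *Prss39* (0.974), *Ldhc* to *Chrac1* (0.974), *Ybx2* (0.973), a germ cell RNA-binding protein, and *Gba2* (0.969). *Pgam2* was closest to *Dkkl1* (0.984), *Tsnaxip1* (0.982) and *Sept12* (0.976), and *Eno4* to *Sord* (0.985), *Rnf19a* (0.978) and *Nudt4* (0.976). Of the somatic forms, *Ldha* was closest to *Mkrn1* (0.981), *Coq4* (0.98) and *Cfap52* (0.972), *Gapdh* to *Gm21974* (0.961), *Gm49369* (0.960) and *0610010K14Rik* (0.940), *Pgam1* to *Psma7* (0.955), *Notch2* (0.953) and *Eci1* (0.947), *Eno1* to *Atp9a* (0.930), *Aamdc* and *Klhdc10* (0.925 each), and *Pgk1* to *Pepd* (0.909), *Rbm3* (0.901) and *Snx30* (0.892).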

How the data were processed

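The authors mapped 2 × 101 bp paired-end reads to Ensembl release 72 with TopHat2 and deposited RPKM per transcript for 94480 transcripts in 28 libraries; the paper also names PEER, quantile normalization and PoissonSeq. In 27 libraries 93.1 to 94.6% of the deposited RPKM values, taken from 200 to 2500 nt transcripts with 6 reads or fewer, fell within 0.06 of a whole read (12.0% by chance), so they precede those adjustments, and that step gave the depth; no count test was run. Transcripts were named with GENCODE M21 (GRCm38; 95.6% matched) and the 78640 with a value in every library were summed per gene. Missing values form 4 sets of libraries, of 14, 7, 6 and 1, taken as quantified together.

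Log2(RPKM + 0.1) of genes with a mean of at least 0.1 RPKM was tested with limma 3.58.1 in R 4.3.3 (trended variance, Benjamini-Hochberg over all genes), with groups of genotype by stage taken from the labels. Pair ratios were tested by exact permutation in Python 3.11.15 with numpy 2.4.6. Genes named are the members, the pathway list, the marker lists and the 3 genes most like each member. The members and lists were chosen with earlier results of these data known. Libraries of a mouse come from the same animal by label, and their residuals correlated (median 0.48, 22 pairs, against -0.05 for 151 pairs of other mice). Tested on simulated data for the later gates over R5, the fit recovered 100% of 200 genes changed by 2 log2 units among 19013, and 6.98% of its calls were false. The simulated libraries were independent, with the same spread for every gene and no mouse effect. These shares therefore do not carry over to the data, where libraries of a mouse correlated. Alternatives were pseudocounts, filters, quantile normalization, 1 transcript per gene, blocks, and libraries or mice left out. For WT mice 178 and 648 alone the permutations could not reach 0.05. The floor of 3 reads covers counting error only.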

Additional observations from a re-analysis of the deposited data

Results flagged for a closer look

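Of 20 checks of groups of 4 or 5 libraries (10 members in KO R7 and in KO whole testis), chance marks about 1 in 20 as having a sample far from the others, and 1 was marked. *Pgk1* in KO whole testis was lowest in mouse 214, at 2.75 RPKM against 6.04 to 7.50 in the other 4, a gap of 0.782 of the range of the group on the log2 scale.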

How the results depend on the processing

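Across pseudocounts, filters, quantile normalization and 1 transcript per gene, 5 members stayed higher and 2 or 3 lower after R5, and none passed between R7 and R4. Leaving out 1 mouse moved the members called after R5 between 3 and 9 (all genes 3178 to 8781), those between R7 and R4 between 0 and 2 (all genes 1858 to 6423, and 2131 in WT mice alone) and those between KO and WT between 0 and 2 (all genes 0 to 1149). The calls between KO and WT were 1 with a pseudocount of 1, a mean of at least 1 RPKM or no R5 library of mouse 544, 0 with the replicate block and 49 with the quantification set as a covariate. Between R7 and R4, 3 members passed with the random replicate block, 1 with the fixed one, 2 without the R5 library of mouse 544 and 1 without the R4 libraries of mice 286 and 648. The covariate, and leaving out those R4 libraries, were chosen after seeing the data. The R5 library of mouse 544 is set apart only by its values, so leaving it out rests on these data as well. For R4 over R7 that changed no R7 or R4 value, only the spread shared by all groups. The cause of these moves was not tested.

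Differences near 0 turned. Without 1 mouse, R4 over R7 ran from -0.46 to 0.21 for *Ldha*, -0.945 to 0.20 for *Ldhc*, -0.044 to 0.43 for *Pgk1*, -0.89 to 0.11 for *Gapdh* and -0.43 to 0.058 for *Pgam2*, which was 0.016 and 0.041 with the random and fixed replicate block and 0.045 without the R4 libraries of mice 286 and 648. KO over WT ran from -0.24 to 3.49 for *Gapdhs*, and with the covariate was -0.78 for *Gapdhs* and -0.16 for *Pgam2*. For the later gates over R5, *Ldhc*/*Ldha* was -0.006 with a pseudocount of 1, -0.031 on 1 transcript, -0.067 without those R4 libraries and -0.31 to 0.18 without 1 mouse. *Pgk2*/*Pgk1* was 3.07 to 5.99 and *Gapdhs*/*Gapdh* 4.24 to 7.16 without 1 mouse, passing in some, and *Gapdhs*/*Gapdh* was 4.68 without those R4 libraries (exact p = 0.0521). In WT mice alone the 4 other ratios were 6.29, 6.71, 6.69 and 2.14 (*Pgk2*, *Gapdhs*, *Pgam2*, *Eno4*), where no p could pass. For R6 and R4 over R5 and R7, WT mice alone gave 0.028 (*Ldhc*), 5.55 (*Gapdhs*), 3.29 (*Pgam2*) and 1.02 (*Eno4*). Without 1 mouse the ratios were -0.53 to -0.15 (*Ldhc*), 1.65 to 3.28 (*Pgk2*), 2.12 to 3.04 (*Pgam2*) and 0.65 to 0.96 (*Eno4*). Those of *Pgk2* were 2.19 with a pseudocount of 1, 2.62 without the R5 library of mouse 544 and 2.28 with no replicate block, and passed in each. *Eno4*/*Eno1* was 0.53 with no replicate block and did not pass, and without the R4 libraries it was 0.73 and *Pgam2*/*Pgam1* 2.32.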
